A study of Mus musculus with 4 samples.

Results

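miR-186 and miR-344 were examined as a pair of dim microRNAs (miRNAs) whose signals were higher after Lin28a knockdown. They were found by their exact names, mmu-miR-186 and mmu-miR-344, and both were present, which makes 2 of 577 miRNA names on the array with 4 of 1712 probes. They were chosen by their unfloored spot signals and total signals, which were higher on siLin28a than on siGFP arrays. Every difference between the groups given for them is therefore a description and carries no test. The RNA came from the mouse embryonic stem cell line A3-1, grown in serum with LIF, a cytokine that holds such cells undifferentiated. The control group received an siRNA against GFP (siGFP), and the other group an siRNA against Lin28a (siLin28a). RNA was taken 48 h later, with 2 replicates per group. Each replicate was labelled with Cy3 from 100 ng of total RNA and hybridised to 1 array. Separate cultures are not stated for the replicates, so the spread between them may be technical. The array does not measure Lin28a mRNA, so the extent of the knockdown is not known from these values.

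A miRNA is a short RNA cut from a hairpin by Drosha and Dicer. It guides an Argonaute protein to messenger RNAs that pair with its seed, the bases near its 5′ end. LIN28A is an RNA-binding protein of stem cells that binds the hairpins of the let-7 family and blocks their maturation. miR-186 is a broadly expressed miRNA made from the transcript of a protein-coding host gene. miR-344 belongs to a rodent family of closely related hairpins that was first described in brain.

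The mature sequences show what the array names stand for, with the seed (bases 2 to 8) in capitals. They are from RefSeq (build GRCm38.p6), and let-7a is added for its seed.
miR-186-5p: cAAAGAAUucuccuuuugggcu
miR-344-3p: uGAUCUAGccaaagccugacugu
let-7a-5p: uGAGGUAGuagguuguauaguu
The 3 seeds differ from each other. Of 1679 mature mouse miRNA names in that table, 0 others have the seed of miR-186-5p. The seed of miR-344-3p occurs in 1 other, miR-344c-3p.

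Each member had 2 probes, which the files describe by their target in build mm9. The targets of miR-186 lie at chr3:157207251-157207270 and chr3:157207250-157207270, on the plus strand. Those of miR-344 lie at chr7:69022668-69022683 and chr7:69022668-69022684, on the minus strand. The paired targets share the 3′ end and differ by 1 base at the 5′ side, so the probes address 20 and 21 of the 22 bases of miR-186 but 16 and 17 of the 23 bases of miR-344. The 3′ ends of the miR-186 and miR-186* targets were 39 bases apart, as were those of miR-186-5p and miR-186-3p in RefSeq. The 3′ end of the miR-344 target lay 2328049 bases from that of miR-211, the same distance as for the 3p arm of the hairpin Mir344 in RefSeq. Written with the target of each member's longer probe in capitals, the sequences show how much of each miRNA was read.
miR-186-5p, longer target: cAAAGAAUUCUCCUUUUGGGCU
miR-344-3p, longer target: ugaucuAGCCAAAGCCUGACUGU

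The stretch read by the miR-344 probes is not unique to miR-344. Both its 16-base and its 17-base stretch occur in full in 1 other mature mouse miRNA of the table, miR-344b-3p. Its relatives are shown with the run of bases that equals the 3′ end of miR-344-3p in capitals.
miR-344b-3p: cauuUAGCCAAAGCCUGACUGU
miR-344h-3p: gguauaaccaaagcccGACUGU
miR-344c-3p: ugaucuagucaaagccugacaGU
miR-344b-3p shares 18 bases at the 3′ end but has another seed. miR-344c-3p has the same seed as miR-344-3p, and its unbroken run at the 3′ end is 2 bases. The run is cut at the first base that differs. miR-344c-3p, miR-344h-3p and miR-344e-3p each differ from the 17-base stretch at 2 separate bases and match it elsewhere. The array names 1 miRNA of the family, so signal from miR-344-3p and from miR-344b-3p cannot be told apart here. Signal from relatives with mismatches to the probes was not tested. No other mature miRNA of the table holds the 20-base or 21-base stretch of miR-186.

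The hairpin of miR-186 lies within Zranb2 on chromosome 3, a gene for a zinc finger RNA-binding protein. Mature miR-344-3p comes from 2 hairpins on chromosome 7, Mir344 and Mir344-2. Mir344 lies within the span of the long noncoding RNA A230057D06Rik, and Mir344-2 within that of the pseudogene Gm3257. All 13 miR-344 hairpins in RefSeq lie on the minus strand of chromosome 7. The nearest protein-coding genes on either side of Mir344 and Mir344-2 are Gm51483, at lower coordinates, and Ndn, at higher ones, an imprinted gene of the Prader-Willi syndrome region. These positions come from the RefSeq gene table of build GRCm38.p6, which gives no exons, so exonic or intronic position was not determined.

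The siLin28a arrays were brighter as a whole, which bears on every unscaled value. Among 425 probes that stood well above background on every array, the 75th percentile of the signal was higher with siLin28a. It was 226 and 220 for siGFP against 248 and 265 for siLin28a, for replicates 1 and 2. Over all probes it was 23.4 and 22.7 against 28.1 and 32.0. The median total gene signal was 4.70 and 4.67 against 6.31 and 9.07. Dim signals were thus brighter too. Among markers of embryonic stem cells, 6 of 6 miRNAs of the miR-290-295 cluster were detected on all arrays, with summed signals of 57752 to 58098 for siGFP and 64166 to 66612 for siLin28a. Because miR-344 was first described in brain, 8 neural miRNAs were read beside it. Of these, 4 were detected on all arrays and 4 on none (miR-9, miR-132, miR-137 and miR-129-5p), and their summed signal was 229 to 265 for siGFP and 276 to 364 for siLin28a. A higher sum was not particular to the neural list. For epithelial miRNAs it was 501 to 570 with siGFP and 750 to 814 with siLin28a. For fibroblast or feeder miRNAs it was 313 to 379 and 386 to 416. The ranges of blood miRNAs overlapped, and muscle miRNAs were not detected. The part of neural or other cells in the value of miR-344 was not tested.

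miR-344 was near background in control cells and clearly above it with siLin28a. Its total gene signal, the sum that Feature Extraction gives over a miRNA's probes in linear intensity units, was 9.08 and 5.82 with siGFP. It was 44.5 and 72.3 with siLin28a. The groups did not overlap, an order that 39.3% of all names showed. The lower siLin28a value exceeded the higher siGFP value by 35.4 units. The means were 7.45 ± 2.31 (SD, n = 2) and 58.4 ± 19.7 (SD, n = 2), a difference of 51.0 units. In RNA from bulk cells, more cells with miR-344 and more miR-344 per cell cannot be told apart.

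The siLin28a replicates of miR-344 differed from each other more than those of most miRNAs. Replicate 2 was 27.8 units above replicate 1, a ratio of 1.62. A ratio at least as large was found for 21 of 261 miRNAs detected on both siLin28a arrays, whose median ratio was 1.17. Replicate 2 was also the brightest array. After scaling to the 75th percentile over probes well above background, the siLin28a values were 43.0 and 65.4. The siGFP values scaled in this way were 9.63 and 6.34. The SD of the siLin28a values was 19.7 unscaled, 15.8 with this scaling and 12.6 with scaling over all probes. The part of array brightness in the gap between replicates was not tested. Without siLin28a replicate 2 the difference between the groups was 37.1 units, and without siLin28a replicate 1 it was 64.9 units.

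miR-186 was close to the limit of detection in control cells, and its difference in signal was smaller. Its total gene signal was 11.9 and 13.1 with siGFP and 30.2 and 34.6 with siLin28a. The groups did not overlap, an order that 39.3% of all names showed. The gap between the nearest arrays was 17.1 units, and replicates lay close together in both groups. The means were 12.5 ± 0.858 (SD, n = 2) and 32.4 ± 3.1 (SD, n = 2), a difference of 19.9 units. After scaling, the 4 values were 12.6 and 14.3 for siGFP against 29.1 and 31.3 for siLin28a, and the difference was 16.8 units. It was 14.2 units with scaling over all probes.

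**Figure D1:**
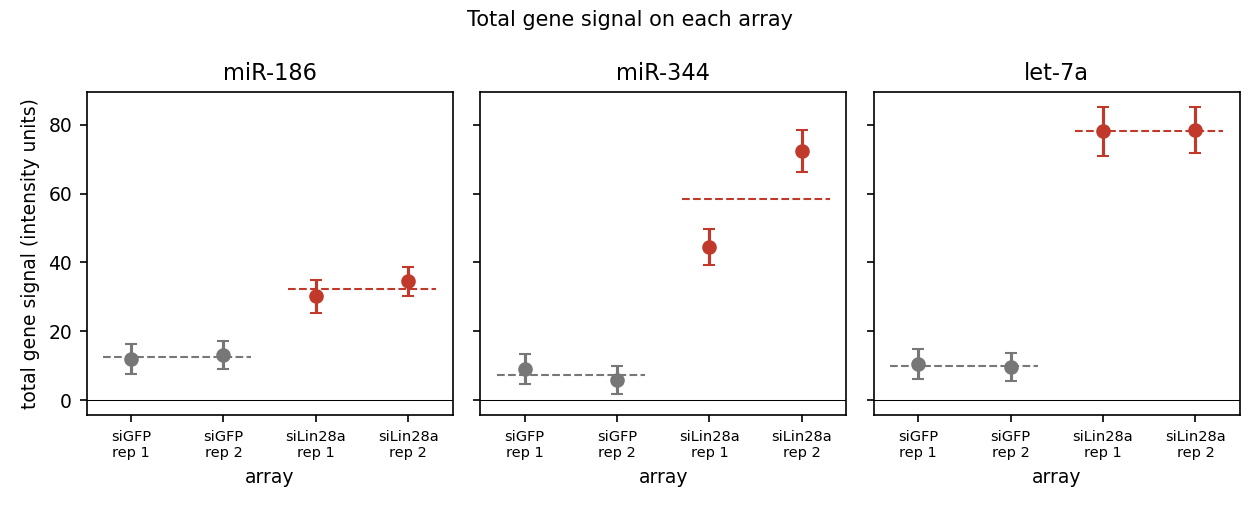
Total gene signal (linear intensity units) of miR-186, miR-344 and, for reference, let-7a on each of the 4 arrays. Points are arrays, bars are Feature Extraction's error of the signal on that array, and dashed lines are group means. For miR-186 and miR-344 both siLin28a arrays lie above both siGFP arrays, and the siLin28a replicates are close for miR-186 (30.2 and 34.6) and apart for miR-344 (44.5 and 72.3).

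The software's detection call separated the members. miR-344 was detected with siLin28a alone, on both of its arrays and on no siGFP array, as were 14 names in all, 2.43% of 577, against 0 names in the opposite direction. Without siLin28a replicate 1 there were 32 such names. More names passed the call on the siLin28a arrays as a whole, 263 and 289, than on the siGFP arrays, 246 and 257. miR-186 was detected on both siLin28a arrays and also on siGFP replicate 2, a pattern of detection on exactly 1 siGFP array that 5 names showed (0.867%). The call matched a signal above 3 times its error for 97.0% of 2308 values. For miR-186 the signal was 2.72 and 3.18 times its error with siGFP and 6.25 and 8.12 times with siLin28a. For miR-344 it was 2.11 and 1.46 times against 8.38 and 11.7 times. Taken by the spots of its probes, miR-186 was not well above background on either siGFP array, and 12 names including both members then changed in the way that miR-344 did. The 14 names comprised the let-7 guides a, d, e, f, g and i, miR-344, miR-99b*, miR-362-3p, miR-466d-3p, miR-466f-5p, miR-467e*, miR-468 and miR-718.

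The separate probes gave the same order of groups as the total signals, which are built from them. Each probe was printed as 10 spots per array, which share one RNA and are not replicates of a condition. For the 17-base probe of miR-344 the mean processed signal, which is the spot signal minus a fitted background surface, was 6.71 and 4.80 with siGFP and 33.4 and 56.9 with siLin28a. For the 16-base probe it was 6.40 and 3.18 against 29.1 and 42.9. All 20 siLin28a spots of the 17-base probe and all 18 of the 16-base probe lay above every siGFP spot of the same probe. Both members were chosen by such spot signals, so the separation of their spots is a description. The share of other probes with this separation was not determined. The lowest siLin28a spot was 18.5 for the 17-base probe and 25.3 for the 16-base probe, and the highest siGFP spots were 10.3 and 12.7. The gap between siLin28a replicates was present on both probes.

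On miR-186, both probes gave higher signals with siLin28a, and the 20-base probe did not reach the call of well above background on the 4 arrays. For the 21-base probe the mean processed signal was 13.4 and 13.1 with siGFP and 28.9 and 31.6 with siLin28a. For the 20-base probe it was 3.77 and 4.83 against 13.5 and 16.1. The difference between the groups was 17.0 units on the longer target and 10.5 units on the shorter one. All 20 siLin28a spots of the 21-base probe lay above its highest siGFP spot, as did 18 of 19 on the 20-base probe. On the 20-base probe 0 spots were flagged well above background on siLin28a replicate 1 and 4 of 9 on replicate 2, against 10 of 10 on both arrays for the 21-base probe.

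**Figure D2:**
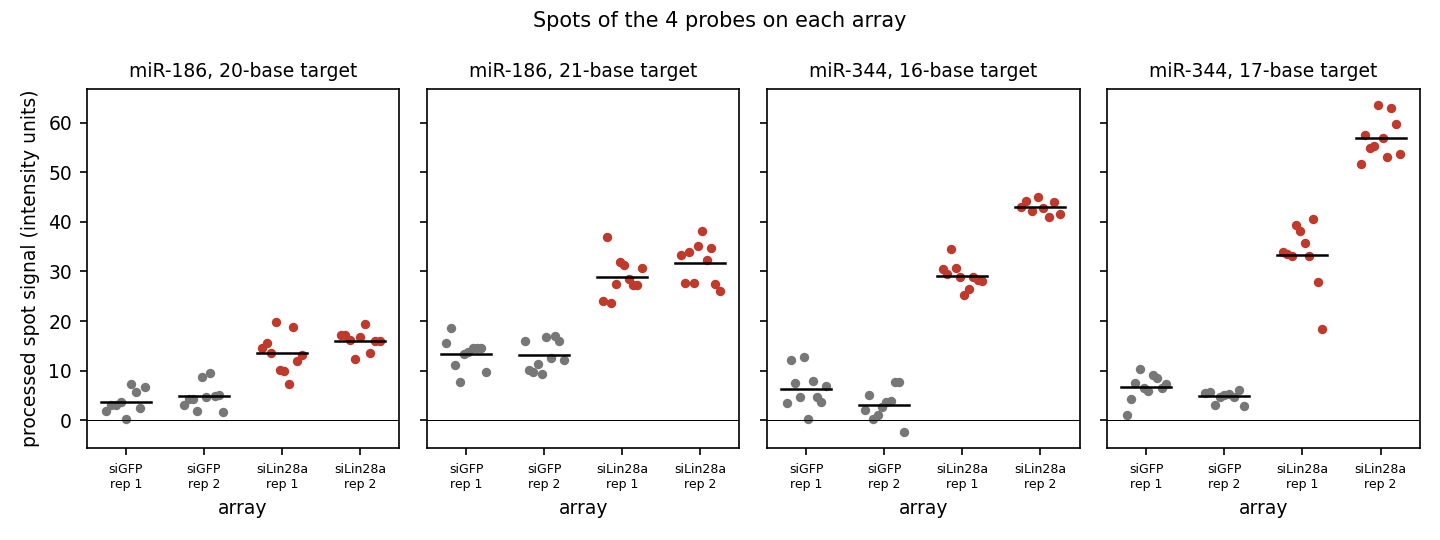
Processed signal (linear intensity units) of every spot that was not an outlier, for the 4 probes on each of the 4 arrays. Points are spots and black lines are means over spots. Spots with siLin28a lie above all siGFP spots on the 21-base probe of miR-186 and on both miR-344 probes, and on the 20-base probe 18 of 19 do.

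miR-186*, the opposite strand of the miR-186 hairpin, was not detected on any array. Its total gene signal was 1.99 and 1.39 with siGFP and 4.79 and 7.82 with siLin28a. The siLin28a values were higher without overlap, an order that 39.3% of all names showed, by 4.61 units in the means. They were 1.58 and 3.20 times their error. The 4 probes of miR-186* did not separate the groups by spots. On the 19-, 20-, 21- and 22-base probes, 3 of 10, 3 of 9, 6 of 10 and 7 of 10 siLin28a spots lay above the highest siGFP spot. On its 20-base probe the mean of siLin28a replicate 1 lay below those of both siGFP arrays. No miR-344 5p name was on the array, so the arms of that hairpin were not compared.

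Because neither member was well above background on any siGFP array by its spots, its fold is a lower bound. The bound sets the mean scaled log2 signal of the siLin28a arrays against the lowest signal well above background on each siGFP array. miR-344 was at least 1.72-fold higher with siLin28a over its 2 probes (at least 1.91-fold on the 17-base probe and 1.55-fold on the 16-base probe). miR-186 was at least 1.32-fold higher on its 21-base probe, the only one of the pair well above background on both siLin28a arrays. With signals floored at the dimmest value well above background, the log2 difference was 0.69 (SE 0.22, n = 2 per group) for miR-344 and 0.32 (SE 0.04, n = 2 per group) for miR-186. All siGFP values lay at that floor, so the SEs hold no spread between the control arrays and are not a measure of precision. For the same reason these differences could not fall below 0 and understate what the unfloored signals show. From total gene signals floored in the same way they were 2.69 and 1.1, and with the normexp background correction both were 0. For miR-186 it was 0.14 with scaling over all probes, 0.50 with no scaling and 0.50 without siGFP replicate 1. For miR-344 it was 0.41 without siLin28a replicate 2 and 0.98 without siLin28a replicate 1.

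The background of the contrast was broad for order and, in intensity units among dim names, narrow for size. The total gene signal was higher on both siLin28a arrays than on either siGFP array for 227 of 577 names (39.3%), or 36.7% after scaling, and lower for 6.41%. The order of the arrays alone is therefore common. Differences in intensity also depend on how strongly each probe binds, so their ranking over miRNAs is not a ranking of amounts. Apart from the member concerned, 331 names had signals no higher than 13.1 on both siGFP arrays, the highest siGFP value of the members. Among these, a difference at least as large as that of miR-344 was found for 2 (0.604%), let-7f and let-7a. A difference at least as large as that of miR-186 was found for 6 (1.81%), namely those 2, let-7e, miR-344, let-7d and let-7i. The members were chosen by this contrast and also set the limit of 13.1. Their high rank among dim names thus follows from the choice and carries no test. Among brighter miRNAs, floored log2 differences above that of miR-344 (0.69) occurred, for example miR-34a (0.82), miR-7a (0.83) and miR-99b (0.89). The floor lowers the values of the members in that comparison. Over the 330 dim names other than the members the median difference was 0.81 units. let-7g lay just outside this range, with 13.2 on siGFP replicate 1. In limma across 231 miRNAs, 2 (0.866%) were higher with siLin28a at an adjusted p below 0.05 and 0 were lower. At an unadjusted p below 0.05 the counts were 31 (13.4%) and 26 (11.3%). Neither member was among the 2 called in that fit, a count that became 0 with scaling over all probes and 40 with dim probes kept. The count was 0 without siGFP replicate 1 or siGFP replicate 2, 13 without siLin28a replicate 1 and 7 without siLin28a replicate 2.

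**Figure D3:**
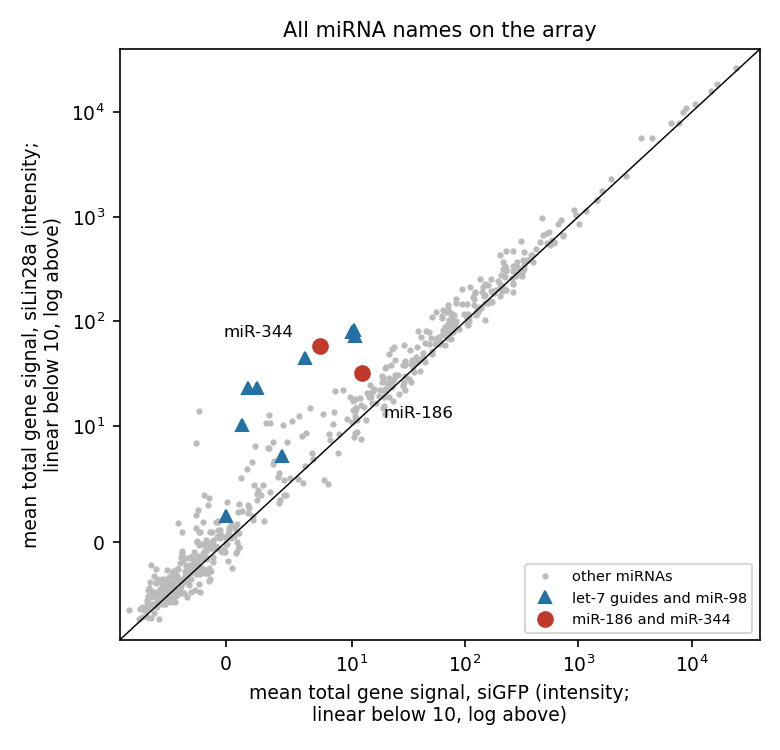
Mean total gene signal with siLin28a against that with siGFP for all 577 names on the array (linear intensity; axes linear below 10 and logarithmic above). Red points are miR-186 and miR-344, blue triangles the 9 let-7 guides including miR-98, grey points all others, and the line marks equal signals. miR-344 lies among the let-7 guides above the line, and miR-186 lies closer to the grey points.

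The pattern across arrays placed the members apart from each other. Likeness was measured as the root mean square difference between profiles of log2(scaled total gene signal + 10), each centred on its own mean over the 4 arrays, against 263 other miRNAs detected on both arrays of a group. These profiles come from the contrast that chose the members, and 4 arrays give a coarse measure. The 3 profiles nearest to miR-344 were those of let-7a (0.24), let-7f (0.24) and let-7e (0.31). let-7i, let-7g and let-7d held the next ranks, so that the 6 nearest profiles were all of let-7 guides. These ranks carry no test. On siLin28a replicates 1 and 2 the profile of miR-344 was 0.66 and 1.16. It was 1.04 and 0.96 for let-7a, 1.05 and 0.98 for let-7f, and 0.74 and 0.90 for let-7e. The likeness thus lay in the difference between the groups, and let-7a and let-7f did not share the order of the siLin28a replicates. miR-186 was rank 11 for miR-344.

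The profiles nearest to miR-186 were of other miRNAs, those of miR-7b (0.078), miR-685 (0.11) and miR-874 (0.11). miR-7b had total gene signals of 23.7 and 21.6 for siGFP and 47.5 and 60.3 for siLin28a, and its groups did not overlap. The let-7 guides in the comparison were at ranks 69 (let-7i, 0.32) to 260 (let-7f, 0.63) of 263 for miR-186, and miR-344 was at rank 235 (0.56). The profiles nearest by this measure were thus of let-7 guides for miR-344 and of other miRNAs for miR-186. Both members shared with let-7 the order of the groups, but they were chosen by that order. After scaling, 36.7% of all names showed it. The offset of 10 makes the measure depend on the level of a miRNA as well as on its change.

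**Figure D4:**
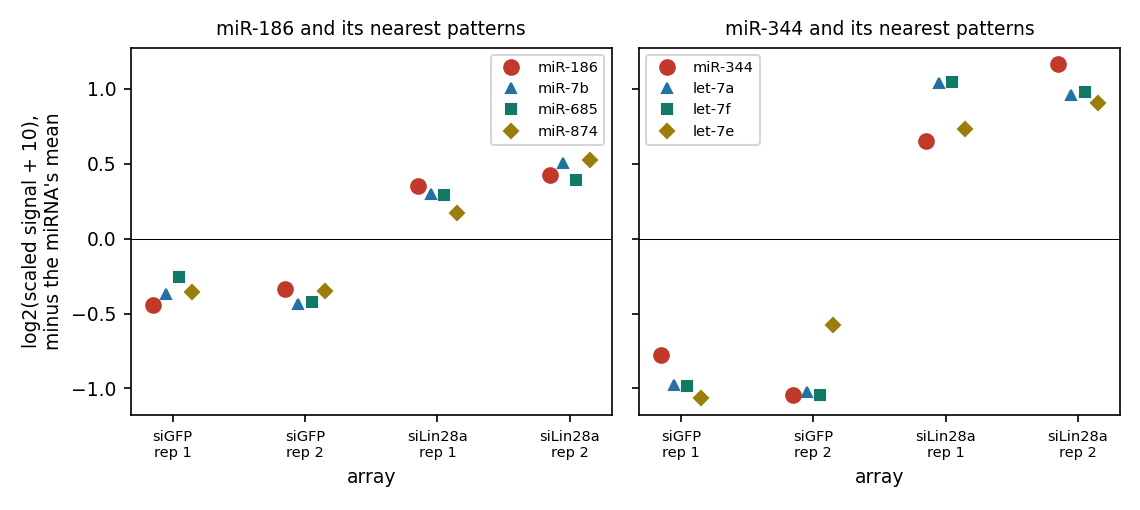
Profiles over the 4 arrays of miR-186 and miR-344 (red circles) and the 3 miRNAs nearest to each, as log2(scaled total gene signal + 10) minus the miRNA's own mean. Points of an array are set side by side; all siLin28a points lie above 0 and all siGFP points below. The profiles around miR-344 (let-7a, let-7f and let-7e) span a wider range than those around miR-186 (miR-7b, miR-685 and miR-874).

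The let-7 guides are the known LIN28A targets of the pathway. All 9 had a higher total gene signal on both siLin28a arrays than on either siGFP array, set against 39.3% of all names. let-7a, at 10.5 and 9.59 for siGFP and 78.1 and 78.3 for siLin28a, had siLin28a replicates closer together than miR-344. The difference was 68.2 units for let-7a, 38.6 for let-7e, 21.2 for let-7d and 20.5 for let-7i, beside 51.0 for miR-344 and 19.9 for miR-186. let-7b, let-7c and miR-98, with differences of 8.89, 2.94 and 2.26 units, were not detected on any array.

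LIN28 proteins are known to bind the letters GGAG in the terminal loop of let-7 hairpins. The hairpins Mir186, Mir344 and Mir344-2 in RefSeq do not contain GGAG on the hairpin strand. It occurs in 9 of 12 let-7 and miR-98 hairpins (75%) and in 447 of 1005 mouse hairpins (44.5%). The search covered the whole hairpin and not the loop alone, and it says only where these letters stand.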

How the data were processed

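Per the file headers, the 4 scanner files came from Agilent Feature Extraction 9.5.1.1 (9.5.3.1 per the submitters' processing notes), design 019119, build mm9, and lay on 1 slide with 1 scan time. Slide and scan therefore gave no batch, and replicates 1 and 2 lay at positions 1 and 2 and positions 3 and 4. The deposited values are intensity on a linear scale. The authors' deposited table holds the total gene signal, within 5% of the scanner value for 100% of 1057 signals above 10. The members and lists were chosen with earlier results of these data known.

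Outlier spots were left out (3.21% to 4.32%), no spot was saturated, and spots were averaged per probe. A probe was well above background when at least 50% of its spots were. Total signals are given as deposited. For limma 3.58.1 (R 4.3.3; eBayes with a trend, two-sided, Benjamini-Hochberg), signals were divided by the array's 75th percentile, floored at 0.0948 and taken to log2. Probes that passed on both arrays of either group were kept (477 probes, 231 miRNAs), and a miRNA's probes were averaged. The fit had no block. It was tested on simulated data that were not floored, so that test does not cover floored values such as those of the members. Named are the members, miR-186*, the let-7 guides, miRNAs detected only with siLin28a, and the 3 nearest profiles of each member; miR-344 relatives, neighbouring genes and the names larger in difference were added after values were seen. Of the other marker lists, all 6 epithelial miRNAs were detected on all arrays (summed signal 501 to 570 for siGFP, 750 to 814 for siLin28a), 3 of 7 fibroblast or feeder miRNAs (313 to 379, 386 to 416), 2 of 6 blood miRNAs (95.3 to 119, 112 to 158) and 0 of 4 muscle miRNAs. Alternatives were other scalings, background corrections, filters, the total signal, the replicate block and leaving out each array. The number of arrays limits the precision.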

Additional observations from a re-analysis of the deposited data

How the results depend on the processing

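Both members stayed higher with siLin28a in each of 11 alternatives for the unfloored signal. The members were chosen by this order and their groups did not overlap, so leaving out 1 array could not reverse it. The replicate block and the authors' table use the same values. Only the sizes of the differences are therefore informative. The difference of miR-186 was 16.8 with scaling over probes well above background and 14.2 with scaling over all probes. Summed probe means, whose scale is not that of the total signal, gave 27.5, or 27.4 with outlier spots kept, and 28.4 with the local background; for miR-344 these were 70.6, 71.6 and 72.1. With 1 array left out the range was 17.7 to 22.1 for miR-186 and 37.1 to 64.9 for miR-344. With the replicate block the differences were 19.9 and 51.0, as without it, and limma called 2 higher and 0 lower; no label ties equal numbers to a common batch. The count called higher was 0 with scaling over all probes, 0 with normexp and 0 with probes well above background on all 4 arrays, where neither member is tested. It was 8 with the total gene signal and 40 with no filter on dim probes, where 8 were called lower. With 1 array left out it was 0 to 13, on the assumption that the lone array varies like the other group. With normexp both members lay at the floor in both groups, a log2 difference of 0. Names detected with siLin28a alone numbered 15 to 32 with 1 array left out, and 32 without siLin28a replicate 1. Both members lie close to background with siGFP, so only bounds on their folds can be given.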
